A study of Mus musculus with 6 samples.

Results

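A set of 10 genes of common gamma-chain and IL-6 receptor signalling were followed in CD4-enriched mouse thymocytes that had lost the transcription factor gene Klf4. The genes were chosen by name, as the receptor chains Il7r, Il2rg, Il4ra, Il6ra and Il6st, the Janus kinases Jak1 and Jak3, the transcription factors Stat5a and Stat5b and the inhibitor Socs1, and every probe that the platform annotation gives to them was taken. Of these 10 genes, 8 had probes, 12 in all, out of 16593 genes and 25697 probes on the array. Il2rg and Il4ra were not analysed here, since no probe of the annotation used carries their names. The lowest 40% of probes by mean signal were set aside as dim, and 10 of the 12 probes, from 7 genes, passed this filter. The dim ones were the Stat5b probe and 1 of the 3 Il7r probes.

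The cells came from 3 Klf4fl/fl-CD4-Cre+ mice (Th_KO, called knockouts 1 to 3 here) and 3 Klf4fl/fl-CD4-Cre- mice (Th_WT, called controls 1 to 3), so the controls also carried floxed Klf4 alleles and lacked the Cre transgene. The strain was C57/BL6 and the age 8 to 10 weeks in both genotypes, and the labels give no sex. The Cd4 promoter drives Cre from the double-positive (DP) stage on, so Klf4 is deleted in maturing thymocytes and not in the stroma or in earlier progenitors. Enrichment for CD4 gave DP and CD4 single-positive (SP4) thymocytes together at a stated purity above 94%, with total RNA of each mouse on its own Illumina MouseRef-8 v2 bead array.

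Cytokine receptors of this group have no enzyme of their own. The gamma chain, encoded by Il2rg, pairs with private chains such as the IL-7 receptor alpha chain and carries the kinase JAK3, while the private chain carries JAK1, and the pair phosphorylates STAT5. IL-6 binds its alpha chain, encoded by Il6ra, and the complex then engages the shared chain gp130, encoded by Il6st, which signals mainly through JAK1 and STAT3. In the thymus Il7r is known to be shut off at the DP stage and switched on again after positive selection, and SOCS1, which blocks the JAKs, is known to restrain cytokine signals in DP cells.

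Values are scores in z units, where 1 unit is the SD of all probes of an array. Whether intensities or their logarithms lie under these scores is not given in the sources used here, so no fold change is stated. Differences are Th_KO minus Th_WT with limma's standard error (SE), and adjusted p-values are limma's, by Benjamini-Hochberg over the 15418 probes tested. Percentiles of mean signal within the array are given only to show whether a marker was bright or dim, since probes differ in how well they bind. In RNA from a mix of cells, fewer cells of a type and less RNA per cell cannot be told apart.

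Klf4 was measured by 3 probes. On ILMN_1241903 the knockouts read -0.555, -0.758 and -0.696 and the controls 0.05, 0.109 and -0.145, a difference of -0.674 (SE 0.0679, adjusted p = 0.00265). On ILMN_1221264 the difference was -0.376 (SE 0.052, adjusted p = 0.046), a call that was lost when any mouse other than control 3 was left out. ILMN_2999439 differed by 0.0367 (adjusted p = 0.944), and the place of the 3 probes within the gene, inside or outside the floxed stretch, is not given in the tables used here. These were the only calls of the comparison, 2 of 15418 probes or 0.013%. Scores of any 2 arrays correlated across probes at 0.992 to 0.9963. Control 3 stood apart in the sex-linked genes. Xist probe ILMN_3022688 read -0.524 to -0.455 in the knockouts, against 2.12 in control 3 and -0.404 and -0.558 in controls 1 and 2. The Y-linked gene Eif2s3y read -0.834 in control 3, against 1.873, 1.894 and 1.533 in the knockouts and 1.894 and 1.828 in controls 1 and 2. Y-linked Kdm5d read -0.749 in control 3, against 0.371, 0.395 and 0.271 in the knockouts and 0.504 and 0.561 in controls 1 and 2. By these genes control 3 read as female and the other mice as male, so the control group mixed the sexes. The results on the members were therefore also computed without control 3.

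Markers of the labelled cells ranged from bright to dim, and so did those of other cell types. The genes of the CD3 chains, Cd3d, Cd3e and Cd3g, and the DP genes Cd8b1, Rag1, Dntt and Arpp21 lay at percentiles of 98.5 to 99.9 of mean signal. The DP genes St6gal1, Themis, Cd4 and Rag2 lay at 96.5, 92.3, 86.8 and 63.4. Among the SP4 markers, Klf2 and Ccr7 lay at 96.3 and 81.7, Zbtb7b and Cd40lg at 53.5 and 41.5, and S1pr1 was dim. Of the NK and CD8 effector markers, 3 of 6 were dim and Prf1 lay at percentile 95.6. Of the myeloid markers, 1 of 6 was dim and Lyz2 lay at 92.4. Of the B-cell markers, 1 of 5 was dim and Cd79b lay at 81.2, and of the stromal markers 3 of 5 were dim, Foxn1 among them. The Cd8a probe was dim as well, at percentile 8.02, although CD8 marks DP cells and the Cd8b1 probe was near the top of the array. Of 8 DP markers tested, 7 had differences below 0, with Themis at -0.239 and Dntt at -0.137 (adjusted p = 0.397 and 0.415), and the median was -0.0765.

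No gene of the gamma-chain and IL-6 receptor group passed the test between the genotypes. Of its 10 tested probes, limma called 0 higher and 0 lower, the smallest adjusted p was 0.461, and 1 probe, that of Il6ra, had an unadjusted p under 0.05. Of all tested probes 0% were called higher and 0.013% lower, and 8.82% had an unadjusted p under 0.05, 4.07% higher and 4.75% lower in the knockouts. The differences lay above 0 in 8 probes and below 0 in 2, with a median of 0.0468, against a median of -0.000353 and 49.7% above 0 over all tested probes. Knockout values lay wholly above control values in 3 of the 10 probes (Il6ra, Il6st and 1 Stat5a probe), and wholly below them in 0, where 6.62% of all tested probes were parted upwards, 7.45% downwards and 14.1% in either direction. The dim Il7r probe was parted in the same way, which makes 4 of 12, beside 6.13% upwards, 6.52% downwards and 12.7% in either direction over all probes. Several of these probes belong to the same gene and all come from the same 6 mice, so the counts are not independent of each other. Without control 3 the median was 0.0461, Il6ra differed by 0.148 (adjusted p = 0.556), and the sign turned only for the dim Stat5b probe, to 0.0351.

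**Figure D1:**
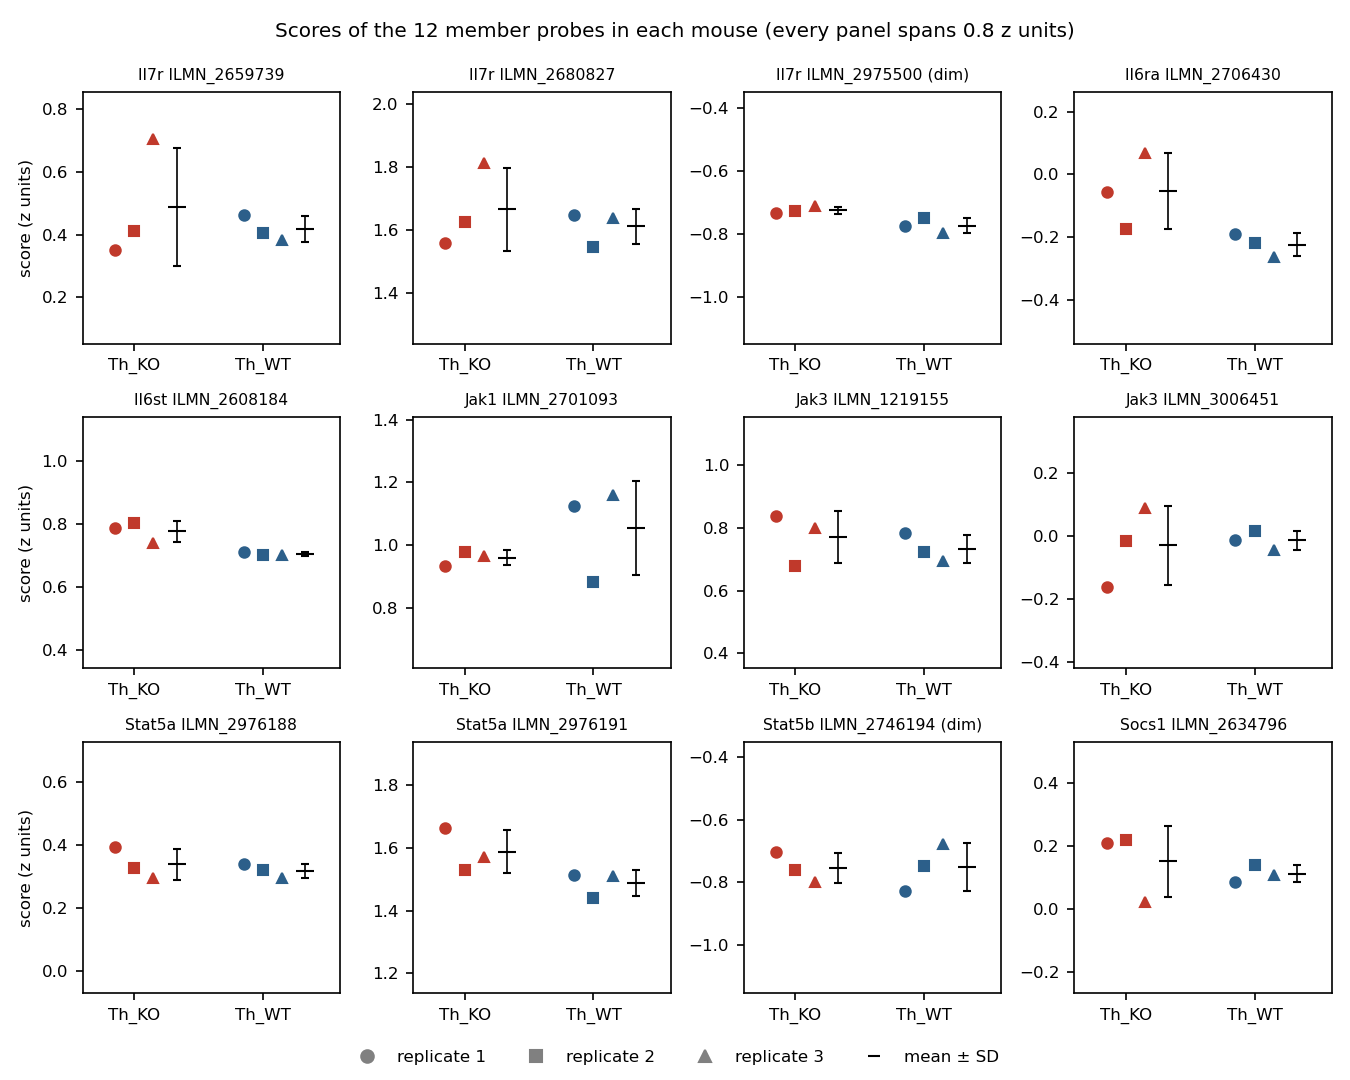
Score in z units (y axis, 0.8 units in every panel) of the 12 member probes in the 3 Th_KO mice (red, left) and the 3 Th_WT mice (blue, right); symbols mark the replicate number and the black bars the mean and SD of a genotype. Knockout points lie above all control points for Il6ra, Il6st, Stat5a ILMN_2976191 and the dim Il7r probe, and knockout 3 stands alone at the top of Il7r probes ILMN_2659739 and ILMN_2680827.

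Of the members, Il6ra had the largest difference and the smallest p. Il6ra, the ligand-binding chain, read -0.057, -0.174 and 0.069 in knockouts 1 to 3, against -0.191, -0.217 and -0.263 in controls 1 to 3 (ILMN_2706430). All 3 knockouts were above the controls, although knockout 2 was only just above control 1. The means were -0.054 ± 0.121 in knockout and -0.224 ± 0.0367 in control mice (SD, n = 3 each). Their difference was 0.17 (SE 0.0609, 95% interval 0.0381 to 0.301, adjusted p = 0.461). In percentiles of the array the means were 65.5 and 61.6. Leaving out knockout 3, the highest mouse, gave 0.107, and leaving out knockout 2 gave 0.231.

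Myeloid cells also express Il6ra, and their markers varied between mice. Lyz2, the lysozyme gene of macrophages and neutrophils, read 1.69, 1.34 and 2.21 in knockouts 1 to 3 and 1.85, 1.52 and 2.25 in controls 1 to 3. Summed scores of the 6 myeloid markers measured were 0.666, -0.11 and 1.51 in the knockouts and 0.883, 0.655 and 1.5 in the controls. Among the knockouts the order of Lyz2 was that of Il6ra, but control 3 had the highest Lyz2 and the lowest Il6ra of the 6 mice. The 5 myeloid markers tested all had differences below 0, opposite in sign to Il6ra. Their part in the Il6ra values was not tested.

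The Il6ra promoter is shown because this gene had the largest difference of the group. The 250 bases before the start, from RefSeq on GRCm38.p6, lie at chr3:89913197-89913446 on the minus strand and are given 5′ to 3′ in the direction of the gene, as are the other promoters below. Both strands were searched for GGGNGTG, a loose form of the GC-rich box that KLF proteins bind, and for TTCNNNGAA, the palindrome bound by STAT5. Neither was found in this window.
Il6ra promoter: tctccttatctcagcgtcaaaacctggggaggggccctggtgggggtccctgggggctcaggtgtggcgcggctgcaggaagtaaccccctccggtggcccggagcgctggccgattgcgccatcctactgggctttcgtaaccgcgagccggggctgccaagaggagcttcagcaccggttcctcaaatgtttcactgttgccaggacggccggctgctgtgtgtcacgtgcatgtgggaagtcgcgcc

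Il6st, which encodes the signalling chain gp130, read 0.787, 0.803 and 0.741 in knockouts 1 to 3, against 0.711, 0.702 and 0.702 in controls 1 to 3 (ILMN_2608184). The groups did not overlap, and the spread within them was small, since only 3.44% of tested probes had a smaller within-group SD. The means were 0.777 ± 0.0321 in knockout and 0.705 ± 0.00551 in control mice (SD, n = 3 each), and limma gave a difference of 0.072 (SE 0.0507, 95% interval -0.0373 to 0.181, adjusted p = 0.714). Limma moderates each variance towards that of probes of like signal, which here widened the error, and without 1 mouse the difference was 0.0592 to 0.0903. The Il6st promoter held no match to either motif in the same window.

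Il7r, the gene of the IL-7 receptor alpha chain, had higher means in the knockouts on all 3 probes, and on the brighter pair this came from 1 mouse. On ILMN_2659739 the knockouts read 0.35, 0.412 and 0.703, against 0.462, 0.406 and 0.383 in the controls, a difference of 0.0712 (SE 0.0793, 95% interval -0.0999 to 0.242, adjusted p = 0.835). On ILMN_2680827 the knockouts read 1.56, 1.62 and 1.81, against 1.65, 1.55 and 1.64 in the controls, a difference of 0.0541 (SE 0.0647, 95% interval -0.0855 to 0.194, adjusted p = 0.847). Knockout 3 was the highest mouse on each, and knockout 1 lay below the control mean. Without knockout 3 the differences were -0.036 and -0.02, so the direction turned. The within-group SD of ILMN_2659739 exceeded that of 97.1% of tested probes.

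The dim Il7r probe ILMN_2975500 read -0.734, -0.728 and -0.711 in the knockouts, against -0.776, -0.749 and -0.796 in the controls. Knockout 3 was again the highest mouse and the groups did not overlap, but the difference of 0.0492 (SE 0.0354, adjusted p = 0.793 with all 25697 probes in the fit) was set in a range of 0.0847 z units over the 6 mice. The 3 probes thus ranked knockout 3 first and did not part the other mice in the same way.

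Il7r is shown with its promoter because it is the only member with a STAT-type match, and because knockout 3 was the highest mouse on all 3 of its probes. The window is at chr15:9529877-9530126 on the minus strand, and capitals mark the match to TTCNNNGAA. It begins 142 bases before the start that the window was taken from. The gene as annotated reaches to base 9529941, so that start lies inside it and part of the window does too.
Il7r promoter: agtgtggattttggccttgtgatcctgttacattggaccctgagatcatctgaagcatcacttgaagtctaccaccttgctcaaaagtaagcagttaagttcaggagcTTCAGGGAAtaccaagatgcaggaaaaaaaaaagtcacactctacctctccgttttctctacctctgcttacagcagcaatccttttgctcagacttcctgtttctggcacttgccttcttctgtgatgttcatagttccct
This motif was present in 7.02% of 32851 promoter windows of the same length, and GGGNGTG in 26.1%. A match to GGGNGTG was found in 5 of the 12 windows of the members, from 5 of the 10 genes (Il2rg, Jak1, Jak3, Socs1 and 1 of 2 Stat5b starts). A match is a description of the letters and not a bound site.

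Socs1, the inhibitor of the JAKs, ran against Il7r in knockout 3. It read 0.211, 0.221 and 0.023 in knockouts 1 to 3, against 0.087, 0.14 and 0.108 in controls 1 to 3 (ILMN_2634796). Knockouts 1 and 2 were the highest mice of the 6 and knockout 3 the lowest, so the control values lay between them. The means were 0.152 ± 0.112 in knockout and 0.112 ± 0.0266 in control mice (SD, n = 3 each), and limma gave a difference of 0.0396 (SE 0.0613, 95% interval -0.0926 to 0.172, adjusted p = 0.894). Without knockout 3 the difference was 0.104 (adjusted p = 0.528), and without knockout 2 it was 0.005. The Socs1 promoter, at chr16:10785537-10785786 on the minus strand, is printed beside that of Il7r, with its match to GGGNGTG in capitals 65 bases before the start.
Socs1 promoter: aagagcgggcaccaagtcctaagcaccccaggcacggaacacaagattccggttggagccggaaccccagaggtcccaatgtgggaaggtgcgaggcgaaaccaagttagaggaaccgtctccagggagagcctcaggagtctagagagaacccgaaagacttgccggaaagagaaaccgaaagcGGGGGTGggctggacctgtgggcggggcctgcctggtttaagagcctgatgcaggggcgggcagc

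Since Il7r returns at the SP4 stage, the markers of that stage were set beside it. Summed scores of the 6 SP4 markers measured were 2.8, 2.71 and 2.65 in knockouts 1 to 3 and 2.82, 2.96 and 2.69 in controls 1 to 3. Knockout 3, the mouse with the most Il7r signal, had the lowest sum. That sum includes Cd4, which is a marker of DP cells too and was also lowest in knockout 3. Cd4 read 1.368, 1.404 and 1.157 in the knockouts and 1.196, 1.33 and 1.343 in the controls. The sum therefore does not give the SP4 content of a mouse apart from that of DP cells. Summed scores of the 9 DP markers measured, Cd4 among them, were 17.89, 18.09 and 18.14 in knockouts 1 to 3. In controls 1 to 3 they were 18.47, 18.55 and 19.42, so all knockouts lay below all controls. Ccr7, a chemokine receptor of mature thymocytes, read 0.798, 0.748 and 1.005 in the knockouts and 1.07, 0.982 and 0.913 in the controls. Knockout 3 thus had the highest Ccr7 of its genotype, but control 1 was higher still. Summed scores of the 6 NK and CD8 effector markers were -0.473, -0.402 and -0.0797 in the knockouts, against -0.488, -0.413 and -0.69 in the controls, with knockout 3 highest. Nkg7, a granule gene of cytotoxic cells, read 0.176 in knockout 3, against -0.222 to -0.038 in the other mice, while Ncr1, Gzma and Eomes were dim. Prf1, the perforin gene and the brightest probe of that list, went the other way in this mouse, at 2.19 in knockout 3, against 2.35 and 2.25 in knockouts 1 and 2 and 2.3, 2.29 and 2.09 in controls 1 to 3. The part of SP4, DP or NK and CD8 effector cells in the values of Il7r and of the other members was not tested.

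**Figure D2:**
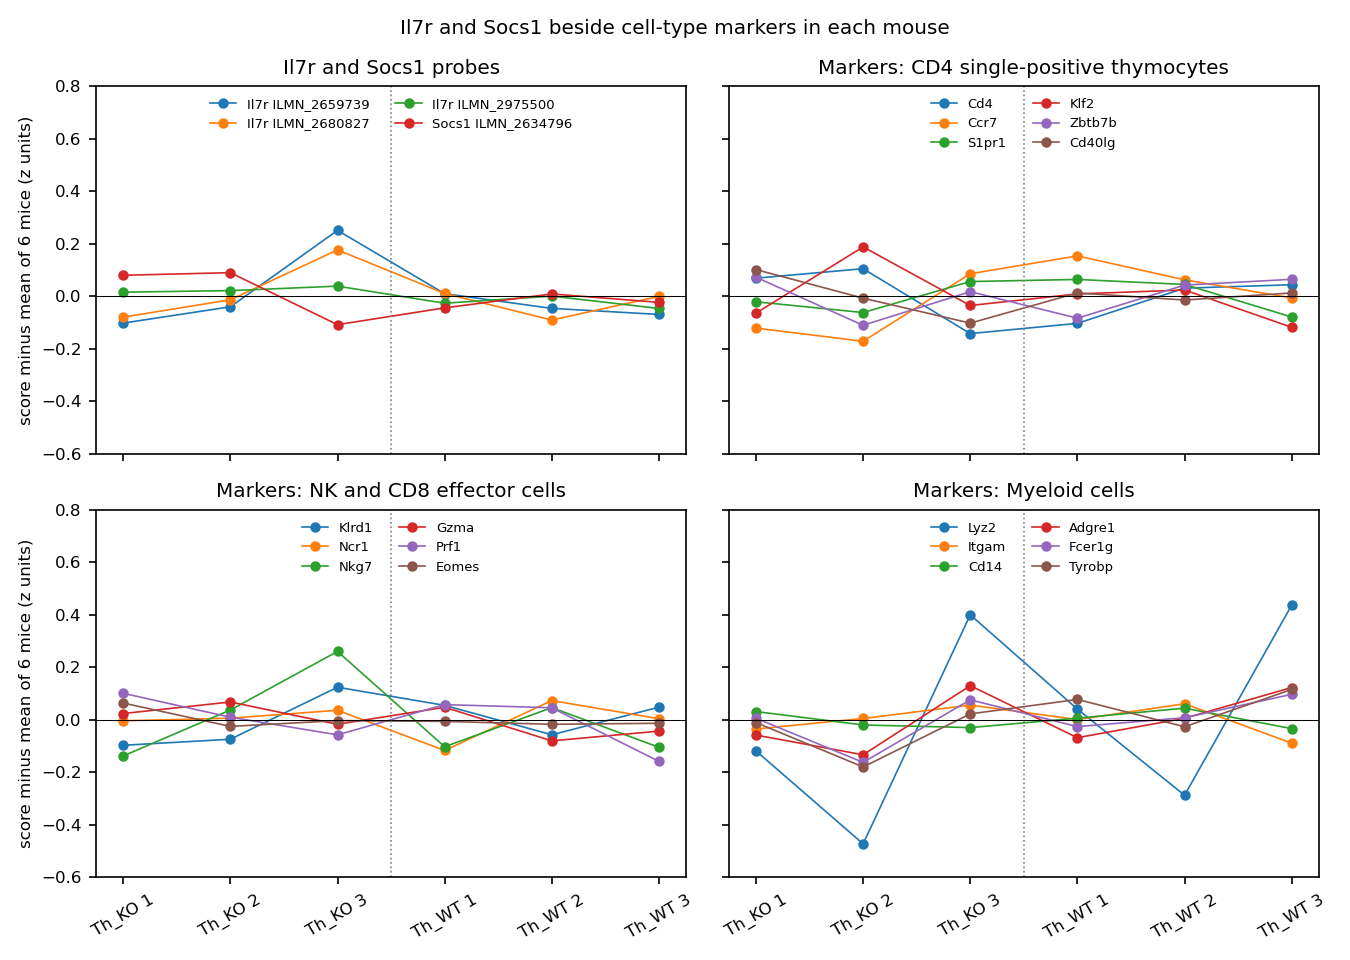
Score minus the mean of the 6 mice, in z units (y axis), for each mouse (x axis, 3 Th_KO left of the dotted line, 3 Th_WT right) for the Il7r and Socs1 probes and for markers of SP4, NK and CD8 effector, and myeloid cells; lines only join the points of a probe. In knockout 3 the Il7r probes are at their highest and Socs1 at its lowest, Nkg7 is high, and Lyz2 is high in both knockout 3 and control 3.

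The kinases showed no shared direction. Jak1, which serves both receptor families, read 0.933, 0.98 and 0.966 in knockouts 1 to 3, against 1.12, 0.884 and 1.16 in controls 1 to 3 (ILMN_2701093). The knockouts were close together and lay between the controls, with control 2 below them and controls 1 and 3 above. The difference was -0.0961 (SE 0.0685, 95% interval -0.244 to 0.0517, adjusted p = 0.719). It was -0.181 without control 2 and -0.045 without control 3. Jak1 was the only member besides 1 Jak3 probe and the dim Stat5b probe with a difference below 0.

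Jak3, the kinase carried by the gamma chain, had 2 tested probes of opposite sign. On ILMN_1219155 the knockouts read 0.836, 0.68 and 0.798, against 0.783, 0.723 and 0.695 in the controls, a difference of 0.0376 (SE 0.0578, 95% interval -0.087 to 0.162, adjusted p = 0.892). On ILMN_3006451 the knockouts read -0.161, -0.017 and 0.089, against -0.013, 0.017 and -0.043 in the controls, a difference of -0.0165 (SE 0.0628, 95% interval -0.152 to 0.119, adjusted p = 0.963). The groups overlapped on both. Knockout 1 was highest on the first probe and lowest on the second, so the 2 probes of this gene did not rank the mice alike.

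Stat5a, one of the transcription factors that carry the signal of gamma-chain receptors, had 1 probe on which the genotypes were parted. On ILMN_2976191 the knockouts read 1.66, 1.53 and 1.57, against 1.51, 1.44 and 1.51 in the controls. All knockouts lay above all controls, knockout 2 by little. The means were 1.59 ± 0.0685 in knockout and 1.49 ± 0.0417 in control mice (SD, n = 3 each), and limma gave a difference of 0.1 (SE 0.0528, 95% interval -0.0135 to 0.214, adjusted p = 0.616). Without knockout 1 it was 0.0625. The other Stat5a probe, ILMN_2976188, read 0.393, 0.328 and 0.295 in the knockouts and 0.34, 0.321 and 0.295 in the controls, a difference of 0.0197 (95% interval -0.0948 to 0.134, adjusted p = 0.949), with overlapping groups.

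Stat5b, its close neighbour on chromosome 11 and partner in the same pathway, had only a dim probe. It read -0.703, -0.759 and -0.8 in the knockouts, against -0.829, -0.749 and -0.677 in the controls (ILMN_2746194). The groups overlapped throughout, with a difference of -0.0019 (SE 0.0431, adjusted p = 0.998 with all probes in the fit). At a mean percentile of 15.5 in the knockouts and 16.4 in the controls, this probe may lie below background, which was not tested for want of detection values.

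**Figure D3:**
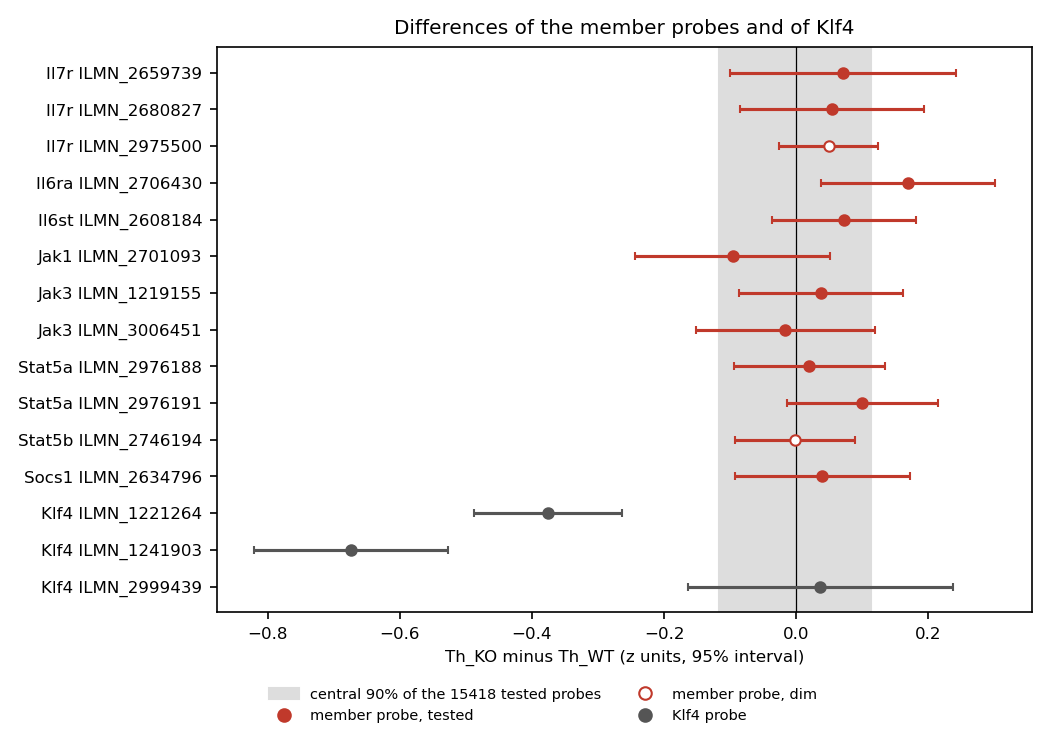
Difference Th_KO minus Th_WT in z units (x axis) with limma's 95% interval for the 12 member probes (red, open circles for dim probes) and the 3 Klf4 probes (grey), with the grey band holding the central 90% of differences of all tested probes. The interval of Il6ra, 0.0381 to 0.301, is the only one of a member that leaves out 0, while those of Klf4 ILMN_1241903 and ILMN_1221264 lie far below it.

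The intervals set the limit of what 3 arrays per genotype could show. Their median half-width was 0.132 z units for the tested member probes, against 0.114 for all tested probes. The median size of a member's difference, 0.0626, was less than this half-width and less than the median within-group SD of 0.0854. No interval of a member reached the difference of Klf4 probe ILMN_1221264 in size. A difference that misses the threshold does not show that the genotypes were alike.

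The rest of the pathway was followed in 7 lists of 77 genes, of which 72 were on the array and 61 had a tested probe. Limma called 0 of their 98 tested probes, and 10.2% had an unadjusted p under 0.05, beside 8.82% of all tested probes. The values that follow are therefore differences that did not pass, with the brightest probe of each gene. Leaving out 1 mouse turned the sign of the median of every list except that of the gamma-chain group, and the range of each median over these 6 fits is given beside it.

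Among the other chains that pair with the gamma chain or its relatives, 5 of 5 tested genes had differences above 0, beside 49.7% of all tested probes. Their median was 0.0415 (0.0400 to 0.072 without 1 mouse), and their probes lay at percentiles of 44.4 to 63.1 of mean signal. Single genes were less steady than the median. Il2rb, at 0.00603, turned to -0.0399 without knockout 1, and Il21r turned to -0.0136 without knockout 2. Il2ra, the alpha chain of the IL-2 receptor and a marker of early progenitors and regulatory T cells, read -0.406, -0.463 and -0.415 in the knockouts, against -0.494, -0.492 and -0.48 in the controls. These groups did not overlap, and the difference was 0.0606 (adjusted p = 0.696). Il15ra, Il13ra1 and Il21r differed by 0.0716, 0.0411 and 0.0415 with overlapping groups, and the other tested probes of Il15ra and Il21r gave 0.00779 and -0.00173. Il9r was dim. Of 7 tested genes listed with the gp130 and IL-12 receptor families, 3 had differences above 0 and 4 below. Their median was -0.00349 (-0.0262 without control 3 to 0.00879 without knockout 2). That list holds Ebi3, which encodes a secreted cytokine subunit and not a receptor chain. Lifr, the receptor of leukaemia inhibitory factor, differed by -0.0685 and was parted between the groups, Cntfr by -0.0518, Il12rb2 by -0.0257 and Ebi3 by 0.0214. The probes of Lifr, Cntfr and Il12rb2 lay near the dim cut, at percentiles of 42.4, 46.0 and 41.0 of mean signal. The other Lifr probes were dim and differed by 0.0269 and 0.00967, with overlapping groups.

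Most ligands of these receptors were dim in the enriched thymocytes. Of 12 on the array, 7 were dim, Il7 and Il6 among them, whose proteins come largely from stromal and myeloid cells. Il4, Osm and Il11 differed by -0.0532, -0.0464 and -0.0328 and Ctf1 by 0.0149, and no tested ligand parted the groups. The median of the 5 tested was -0.0328 (-0.0408 without knockout 3 to 0.00201 without control 3).

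Stat6 and Stat3 differed in opposite directions. Stat6, the transcription factor of IL-4 signalling, read 0.299, 0.469 and 0.502 in knockouts 1 to 3, against 0.648, 0.608 and 0.569 in controls 1 to 3. All knockouts lay below all controls, with a difference of -0.185 (SE 0.0623, adjusted p = 0.44), which was -0.123 without knockout 1. Its other tested probe differed by -0.0322. Stat3, the main transcription factor of gp130, read 2.14, 2.13 and 2.08 in the knockouts, against 2.06, 1.97 and 2.02 in the controls, a difference of 0.0967 (SE 0.0471, adjusted p = 0.585) without overlap, and its other probes gave 0.0844 and 0.0229 with overlapping groups. Jak2 and Stat4 differed by 0.0278 and 0.0132, and the 6 genes tested on the list had a median of 0.0127 (-0.0131 without control 2 to 0.0363 without control 3).

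Among 16 tested genes that restrain JAK-STAT signalling, 8 differences lay above 0 and 8 below, with a median of 0.00843 (-0.00877 without knockout 1 to 0.0312 without control 3). Cish, a SOCS-family gene that STAT5 is known to induce, read 0.973, 1.16 and 1.15 in the knockouts, against 0.897, 0.967 and 0.905 in the controls. Knockout 1 was just above control 2, so the groups did not overlap, and the difference was 0.172 (SE 0.0603, adjusted p = 0.456). Ptpn6, which encodes the phosphatase SHP-1, read 1.99, 2.04 and 2.11 in the knockouts, against 2.13, 2.15 and 2.22 in the controls, a difference of -0.119 (adjusted p = 0.503), and its other probe differed by -0.169 (adjusted p = 0.472). Socs5 differed by -0.102. The brightest Pias3 probe differed by 0.108 and the other 2 by -0.0821 and -0.0244.

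Genes known to respond to these cytokines or to serve survival split 8 above 0 and 5 below, with a median of 0.00719 (-0.014 without control 1 to 0.0375 without knockout 2). Bcl2, the survival gene induced by IL-7 in maturing T cells, read 1.41, 1.31 and 1.3 in the knockouts, against 1.11, 1.25 and 1.11 in the controls on its brightest probe. The groups did not overlap and the difference was 0.183 (SE 0.0578, adjusted p = 0.413), but the other 5 tested Bcl2 probes gave -0.00614 to 0.0792. Mcl1, a survival gene that IL-7 also supports, differed by -0.0979 (adjusted p = 0.569), with all knockouts below all controls. Ccnd2, the cyclin D2 gene, differed by 0.131 and Pim3, a serine kinase gene, by 0.0574.

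Known regulators of Il7r transcription split 6 above 0 and 4 below, with a median of 0.0094 (-0.0212 without knockout 2 to 0.0256 without knockout 3). Foxp1, which represses Il7r in naive T cells, read 1.51, 1.39 and 1.27 in knockouts 1 to 3, against 1.23, 1.05 and 1.28 in controls 1 to 3, a difference of 0.205 (SE 0.0712, adjusted p = 0.452). Knockout 3, the mouse highest in Il7r, had the lowest Foxp1 of its genotype and lay just below control 3. Control 2 had the lowest Foxp1 of all mice, yet also the lowest Il7r on ILMN_2680827, at 1.547. On Il7r ILMN_2659739 control 2 read 0.406, where knockout 1 was lowest at 0.35. The part of Foxp1 in the Il7r values was not tested. Foxo1, which activates Il7r, differed by -0.0914, with 0.747, 0.725 and 0.778 in the knockouts and 0.807, 0.768 and 0.949 in the controls. Runx1 and Klf2 differed by 0.0672 and 0.0582, with overlapping groups.

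**Figure D4:**
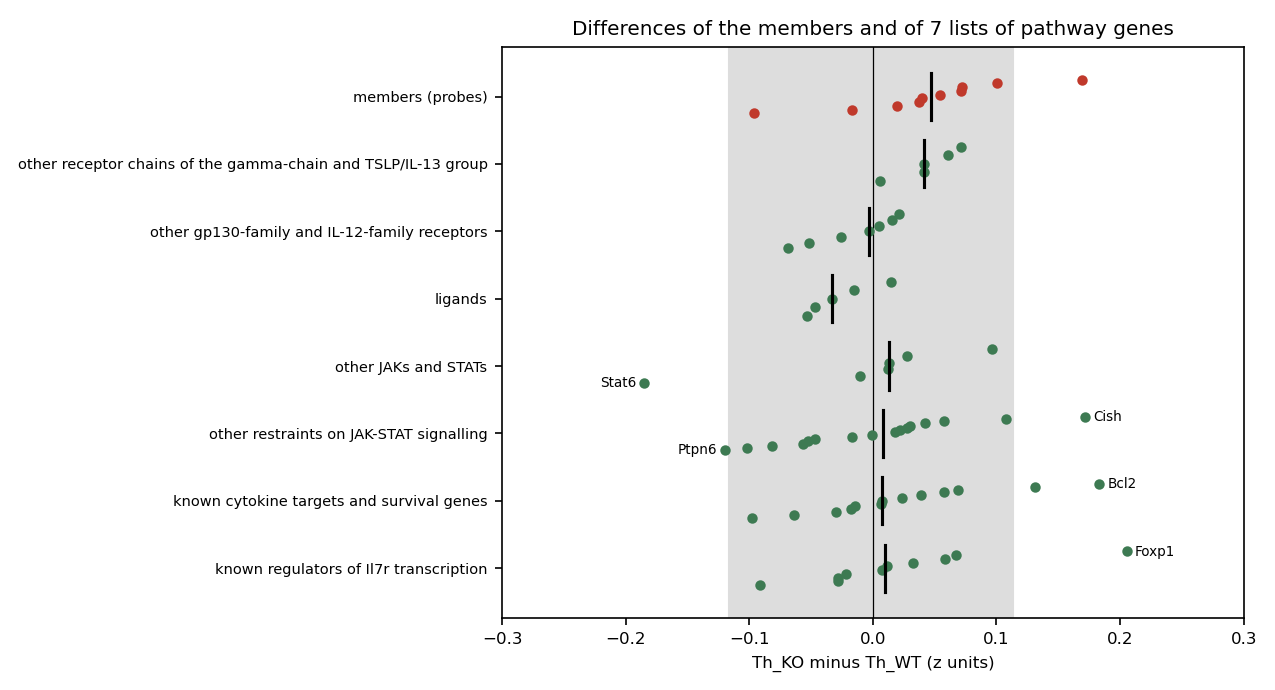
Difference Th_KO minus Th_WT in z units (x axis) of the tested member probes (red) and of the genes of 7 pathway lists (green, 1 probe per gene), with list medians as black bars and the central 90% of all tested probes in grey. Named genes, from Stat6 at -0.185 to Foxp1 at 0.205, had an unadjusted p under 0.05 and did not pass adjustment; list medians lie between -0.0328 and 0.0415.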

How the data were processed

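Each mouse gave 1 array, and the replicates are separate mice. The deposited values are scores with mean 0 and SD 1 within every array, as the values show. GenomeStudio 2010.1 is listed among the submitters' processing notes, and its step is not given in the sources used here. Column medians were -0.493, -0.489 and -0.49 for Th_KO 1 to 3 and -0.488, -0.491 and -0.487 for Th_WT 1 to 3. Scale and centring before standardisation and detection values stay unknown. The number of columns belonging to other series was 0. Scores were quantile-normalized because array quartiles differed by up to 6.93% of the interquartile range. Probes under the 40th percentile of mean signal were left out, and 15418 were fitted with limma 3.58.1 in R 4.3.3 (eBayes with a trend, two-sided, threshold 0.05 after Benjamini-Hochberg adjustment), a test planned for log2 values. Dim members came from the same fit on all probes. Probe symbols came from GEO's platform annotation for 23978 probes, 23962 of them found in RefSeq; 1719 probes stayed unnamed and 0 had several symbols. Every member probe was named, and up to 4 genes per pathway list by smallest p. The members and lists were chosen with earlier results of these data known. The fit was also run on simulated data with independent noise and added differences larger than any of the members'. That run does not show what the fit could detect at the members' sizes. Alternatives were the deposited scores, median centring, other filters, variance models, array weights, a replicate block and leaving out each mouse.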

Additional observations from a re-analysis of the deposited data

How the results depend on the processing

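None of the 12 member probes passed the threshold in any of 14 alternative settings, of which 12 applied to the dim probes. Of the 164 values that these gave over all member probes, 154 kept the direction. The Stat5b probe turned to 0.00629 with the deposited scores, 0.0083 with median centring and 0.00455 with array weights. Leaving out 1 mouse gave Stat5b values of -0.0403 to 0.0351, Il7r values of -0.036 to 0.141 on ILMN_2659739 and -0.0200 to 0.107 on ILMN_2680827, Jak3 ILMN_3006451 values of -0.0753 to 0.0491, and Stat5a ILMN_2976188 values of -0.00748 to 0.041. The other 7 member probes kept their sign in all refits run. Of all probes, 1 was called higher with robust variance, 1 lower without a trend in the variance and 0 lower with the filter at the 60th percentile, under which both called Klf4 probes fall. Leaving out 1 mouse gave 0 to 1 higher and 1 to 4 lower, with 1 higher without Th_WT 3, 4 lower without Th_KO 1, and 1 lower without Th_KO 3, Th_WT 1 or Th_WT 2. Klf4 ILMN_1221264, at -0.376, lost its call without a trend (adjusted p = 0.141), and without 1 mouse it lay between -0.425 and -0.336. Klf4 ILMN_2999439 lay between -0.052 and 0.14 without 1 mouse. The cause of these shifts was not tested. With the replicate number as a block 2 probes were called higher and no member. Same-numbered mice correlated in their deviations at -0.0338, 0.167 and 0.0346. Knockouts 2 and 3 correlated best with the control of their own number, and knockout 1 with control 3, at 0.11. Deviations from a mean of 3 mice are tied to each other, so these correlations cannot decide whether the numbers pair the mice. Precision is limited by 3 arrays per genotype, and the scores carry no measure of signal over background.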

Other observations

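Several genes of the pathway gave different answers on different probes, and the 2 probes with the smallest p among the 98 tested were not the brightest of their gene. They were chosen after their values were seen. Ptprc, which encodes the phosphatase CD45, read 0.829, 0.847 and 0.922 in knockouts 1 to 3, against 1.08, 1.07 and 1.21 in controls 1 to 3, on ILMN_1212836, a difference of -0.254 (SE 0.0565, adjusted p = 0.291). Its brighter probe ILMN_2671984 differed by -0.0568, with overlapping groups. Pim2, a serine kinase gene that STAT5 is known to induce, read -0.648, -0.585 and -0.502 in the knockouts, against -0.412, -0.385 and -0.35 in the controls, on ILMN_1222824, a difference of -0.196 (SE 0.0457, adjusted p = 0.312), while its other 2 probes differed by 0.0691 and 0.0504. Ets1, a transcription factor that binds the Il7r locus, differed by 0.132 and 0.1 on 2 probes without overlap and by 0.0116 on its brightest. What part of the transcripts each probe reports is not given in the tables used here.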
